A study of Mus musculus with 18 samples.

Results

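The identifiers uc008yjp.1 and uc009ukk.2 are 2 of 63244 UCSC transcript identifiers in a table of RNA-seq read counts from mouse primary chondrocytes. They were chosen by their response to interleukin-6 (IL-6) at 1% oxygen, as the first and second by log2 fold change among the identifiers called higher there with a mean of at least 5 CPM (counts scaled to library size) and no overlap between the groups. Both also had higher values with IL-6 at 21% oxygen, where uc008yjp.1 passed the test and uc009ukk.2 passed it only in some fits. They differed in how they stood before IL-6 was added, with uc008yjp.1 lower and uc009ukk.2 higher at 1% than at 21% oxygen, though neither difference passed the test at 0 h.

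The chondrocytes were wild type and came from cartilage. All of the cells were first grown in medium with 10% serum under either oxygen level, called normoxia (21%) and hypoxia (1%) here. Each oxygen level had 3 untreated libraries at 0 h, 3 untreated libraries at 12 h and 3 libraries of cells kept with IL-6 for 12 h, the 12 h step being in medium free of serum, which makes 18 libraries in 6 groups. IL-6 was given at 100 ng/ml; the protocol also mentions the IL-6 receptor, the sample labels do not, and whether it was added is not known. The labels do not give the age or number of animals, or say whether replicates 1 to 3 came from separate cultures. The spread that enters the p-values is thus that between libraries, which may be technical.

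Chondrocytes are the cells that make and maintain the matrix of cartilage, a tissue without blood vessels in which oxygen is normally low. IL-6 is an inflammatory cytokine. It signals when it is bound to its receptor, in the membrane or in soluble form, and to a shared signal-transducing chain, which activates JAK kinases and the transcription factor STAT3. Cells at low oxygen accumulate hypoxia-inducible factors, which change the expression of genes for glycolysis, vessel growth and other functions.

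The table does not pair its identifiers with gene symbols, and the reference tables used here hold no UCSC identifiers. No gene name, role, genome position or sequence is therefore given for either identifier, and the marker genes of chondrocytes and of other cell types are not analysed here. Each identifier is a transcript, and reads that fit more than one were not assigned to any. The reads left out as ambiguous averaged 46.5% ± 2.71 (SD, n = 18) of the uniquely aligned reads, so an identifier that overlaps another was measured from only part of its reads. Transcript lengths are not in the table either, so the levels of the 2 identifiers are not set against each other.

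Assigned counts ranged from 3088280 to 10241162 per library. Levels are given as CPM after TMM scaling, a correction for differences in library composition. A count of 0 still allows a level of up to 3 counts, or 0.282 CPM where depth was greatest and 1.14 CPM where it was least, which covers counting error only. Replicate 3 in hypoxia stood apart: over all tested identifiers, its libraries differed from those of the same group by a root mean square of 0.75 to 1.08 in log2 CPM, against 0.49 to 0.63 between replicates 1 and 2. In normoxia replicate 3 did not, with 0.54 to 0.75 against 0.79 to 0.82. In the untreated normoxia groups replicate 1 lay 0.69 to 0.81 from replicates 2 and 3, against 0.54 to 0.56 between those. In the normoxia IL-6 group it lay 0.82 and 0.67 from them, against 0.69. The hypoxia libraries of replicate 3 alone were sequenced in lane 8, so the replicate cannot be told apart from its lane. For each assigned read, the libraries of replicate 3 held fewer reads with several alignments at both oxygen levels, 0.764 to 1.48 in hypoxia and 1.06 to 1.70 in normoxia, against 2.34 to 4.18 in the other libraries. The fitted differences that involve hypoxia are given with and without the hypoxia libraries of replicate 3.

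In the choosing comparison, IL-6 against untreated cells at 12 h in hypoxia, uc008yjp.1 had the largest log2 fold change of 13432 tested identifiers and uc009ukk.2 the third largest. Of the tested identifiers, 0.387% were called higher there by edgeR at an adjusted p under 0.05. Among the 49 called higher with a mean of at least 5 CPM and no overlap between the groups, the 2 identifiers were first and second. The log2 fold changes were 4.98 (SE 0.63) for uc008yjp.1, 3.88 (SE 0.53) for uc009ukk.2, and 3.86 (SE 0.55) for the next identifier, just outside the choice. These values chose the identifiers and are a description, with no test.

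The identifier uc008yjp.1 was close to the limit of detection in untreated hypoxia. At 0 h it had 3, 3 and 0 counts in replicates 1 to 3, or 0.422, 0.434 and 0 CPM. At 12 h without IL-6 it had 4, 0 and 2 counts, or 0.820, 0 and 0.533 CPM. With IL-6 it had 227, 48 and 87 counts, or 21.4, 7.96 and 11.9 CPM. All 3 IL-6 libraries stood above all 6 untreated hypoxia libraries, and replicate 1 was the highest of the 3.

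In normoxia uc008yjp.1 was counted in every untreated library. At 0 h it had 11, 9 and 10 counts, or 2.16, 0.958 and 0.950 CPM. At 12 h without IL-6 it had 4, 7 and 8 counts, or 0.616, 0.771 and 0.838 CPM. With IL-6 it had 75, 69 and 77 counts, or 13.8, 8.74 and 7.83 CPM. The IL-6 libraries again stood above all 6 untreated ones, and replicate 1 was again the highest with IL-6.

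For uc009ukk.2, untreated hypoxia was low but never at 0. At 0 h it had 7, 5 and 3 counts, or 0.986, 0.723 and 1.14 CPM. At 12 h without IL-6 it had 9, 7 and 9 counts, or 1.85, 1.18 and 2.40 CPM. With IL-6 it had 527, 126 and 57 counts, or 49.6, 20.9 and 7.77 CPM. All 3 IL-6 libraries stood above the untreated ones, but they differed among themselves by 6.38-fold from lowest to highest, against 2.69-fold for uc008yjp.1 in the same libraries.

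In normoxia uc009ukk.2 was lower in each of the 3 states. At 0 h it had 1, 2 and 4 counts, or 0.197, 0.213 and 0.380 CPM. At 12 h without IL-6 it had 2, 5 and 5 counts, or 0.308, 0.551 and 0.523 CPM. With IL-6 it had 19, 20 and 30 counts, or 3.49, 2.53 and 3.05 CPM. The 3 IL-6 libraries lay close together, with a coefficient of variation of 15.9%, against 82.0% for the IL-6 libraries in hypoxia; the median over all tested identifiers was 27.9% in normoxia and 28.3% in hypoxia.

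**Figure D1:**
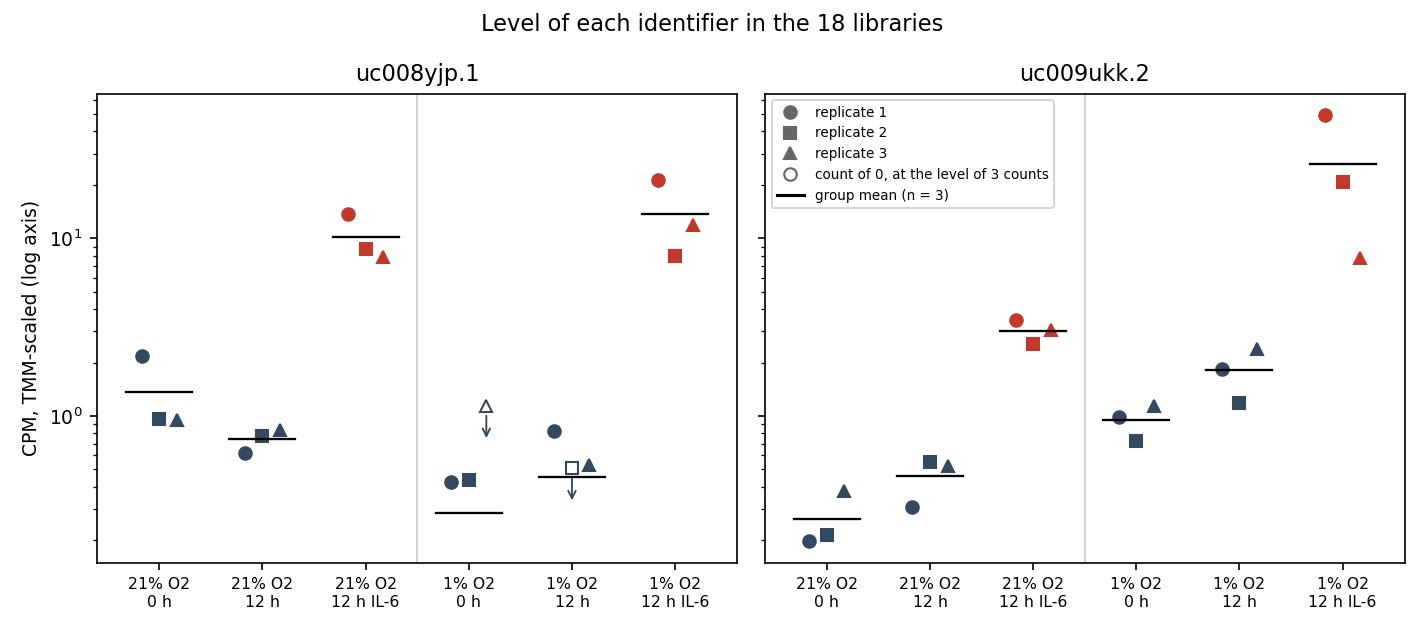
Level of uc008yjp.1 (left) and uc009ukk.2 (right) in TMM-scaled CPM on a log axis, 1 point per library, with the group mean (n = 3) as a line and IL-6 libraries in red. Open points with arrows are the 2 libraries with a count of 0, drawn at the level of 3 counts; the IL-6 libraries stand above the untreated ones of the same oxygen level in both panels.

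Ordered by mean level, uc008yjp.1 ran from hypoxia at 0 h (0.285 CPM ± 0.247) through hypoxia at 12 h (0.451 ± 0.416), normoxia at 12 h (0.742 ± 0.114) and normoxia at 0 h (1.36 ± 0.698) to IL-6 in normoxia (10.1 ± 3.21) and IL-6 in hypoxia (13.7 ± 6.90), each as mean ± SD with n = 3. The ranges of the 3 lowest groups overlapped from one to the next. The 2 IL-6 groups overlapped too, at 7.83 to 13.8 CPM in normoxia and 7.96 to 21.4 CPM in hypoxia.

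The order for uc009ukk.2 was normoxia at 0 h (0.263 CPM ± 0.101), normoxia at 12 h (0.461 ± 0.133), hypoxia at 0 h (0.949 ± 0.210), hypoxia at 12 h (1.81 ± 0.607), IL-6 in normoxia (3.03 ± 0.480) and IL-6 in hypoxia (26.1 ± 21.4), again as mean ± SD with n = 3. Only the 2 normoxia groups without IL-6 overlapped in range. The 2 untreated hypoxia groups were separated narrowly, the highest at 0 h being 1.14 CPM and the lowest at 12 h 1.18 CPM. The 2 IL-6 groups of uc009ukk.2 did not overlap either, with 2.53 to 3.49 CPM in normoxia and 7.77 to 49.6 CPM in hypoxia. Since the hypoxia IL-6 libraries took part in the choice, this is a description. How many other tested identifiers had groups without overlap was not counted.

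The IL-6 change in normoxia rests on libraries that took no part in the choice, and it was tested. Both identifiers passed the filter on low counts through their IL-6 libraries, which include the normoxia ones compared here. With no such filter both were called (edgeR adjusted p = 2.29e-11 for uc008yjp.1 and 0.000377 for uc009ukk.2). The identifier uc008yjp.1 rose by a log2 fold change of 3.71 (SE 0.54), or 13.1-fold, with an edgeR adjusted p of 0.00330. It was 1 of 27 identifiers called, which is 0.201% of those tested. All 27 were higher in this fit, while the replicate block within each oxygen level called 272 higher and 126 lower. Its log2 fold change was the fifth largest of the 13432 tested, whose median was 0.00. It was called in 7 of 7 fits with libraries left out, at edgeR adjusted p from 0.00384 to 0.0456.

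The identifier uc009ukk.2 had a log2 fold change of 2.62 (SE 0.61), or 6.16-fold, in normoxia, which did not pass the test (edgeR adjusted p = 0.118, unadjusted p = 0.000414). It was higher with IL-6 in 3 of 3 same-numbered pairs, but how many other tested identifiers were so was not counted. The untreated libraries held 12 of its counts in all. The fit as reported leaves out the replicate number, although same-numbered libraries of this comparison deviated together, with correlations of 0.50 to 0.69 across identifiers. With the replicate number as a block within each oxygen level, its log2 fold change was 2.60 (edgeR adjusted p = 0.00126), a fit in which 2.03% of identifiers were called higher. It also passed with DESeq2 (adjusted p = 0.0309) and without the 3 hypoxia libraries of replicate 3, which are not in the groups compared here but share the fit (2.61, SE 0.46, edgeR adjusted p = 0.0196). It was called in 1 of 7 fits with libraries left out and no block, at edgeR adjusted p from 0.0196 to 0.4997. Its call therefore depended on the model and, without the block, on the libraries. Its log2 fold change stayed within 2.45 to 2.75 over those 7 fits. With the block and replicate 1, 2 or 3 left out of every group, it was called each time (edgeR adjusted p = 0.0445, 0.0428 and 0.000767). These last fits were chosen after seeing the data.

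**Figure D2:**
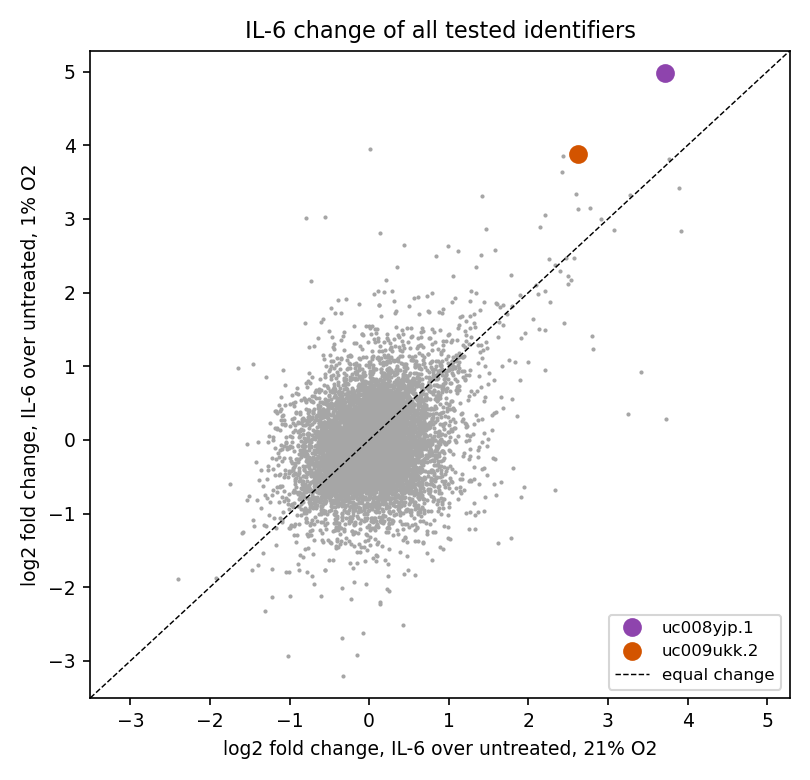
Log2 fold change with IL-6 at 12 h in normoxia (horizontal) and hypoxia (vertical) for the 13432 tested identifiers (grey), with uc008yjp.1 and uc009ukk.2 as large points and a dashed line of equal change. Both lie above the line, at 3.71 and 4.98 for uc008yjp.1 and at 2.62 and 3.88 for uc009ukk.2; the vertical axis is the one on which they were chosen.

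Same-numbered libraries show the IL-6 change at both oxygen levels replicate by replicate. The numbers pair libraries within an oxygen level, but were not taken as pairs between the 2 levels. For uc008yjp.1 in normoxia the CPM ratio of IL-6 over untreated was 22.4 in replicate 1, 11.3 in replicate 2 and 9.35 in replicate 3. In hypoxia it was 26.1 in replicate 1 and 22.3 in replicate 3. Replicate 2 had no untreated count and was at least 15.7-fold higher with IL-6, taking 3 counts for the untreated library. The ratio or its bound was thus larger in hypoxia in 3 of 3 replicates, which the choice favours. How many other tested identifiers were so was not counted. The exact 95% counting intervals were wide, 8.39 to 84.3 in normoxia against 10.0 to 96.5 in hypoxia for replicate 1. For replicate 2 the normoxia interval, 5.21 to 29.2, holds the hypoxia bound of 15.7. For replicate 3, whose untreated hypoxia library held 2 counts, the intervals ran from 4.52 to 22.4 and from 5.98 to 187.

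For uc009ukk.2 in normoxia the ratio was 11.3 in replicate 1, with a 95% counting interval from 2.74 to 100.4 since the untreated library held 2 counts. It was 4.60 (1.67 to 15.7) in replicate 2 and 5.83 (2.24 to 19.2) in replicate 3. In hypoxia it was 26.9 (14.1 to 59.1) in replicate 1 and 17.6 (8.31 to 44.8) in replicate 2. In replicate 3 it was 3.24 (1.59 to 7.45), lower than in normoxia. The response was thus larger in hypoxia in replicates 1 and 2, which the choice favours, and smaller in replicate 3. The intervals of the 2 oxygen levels overlapped in each replicate.

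**Figure D3:**
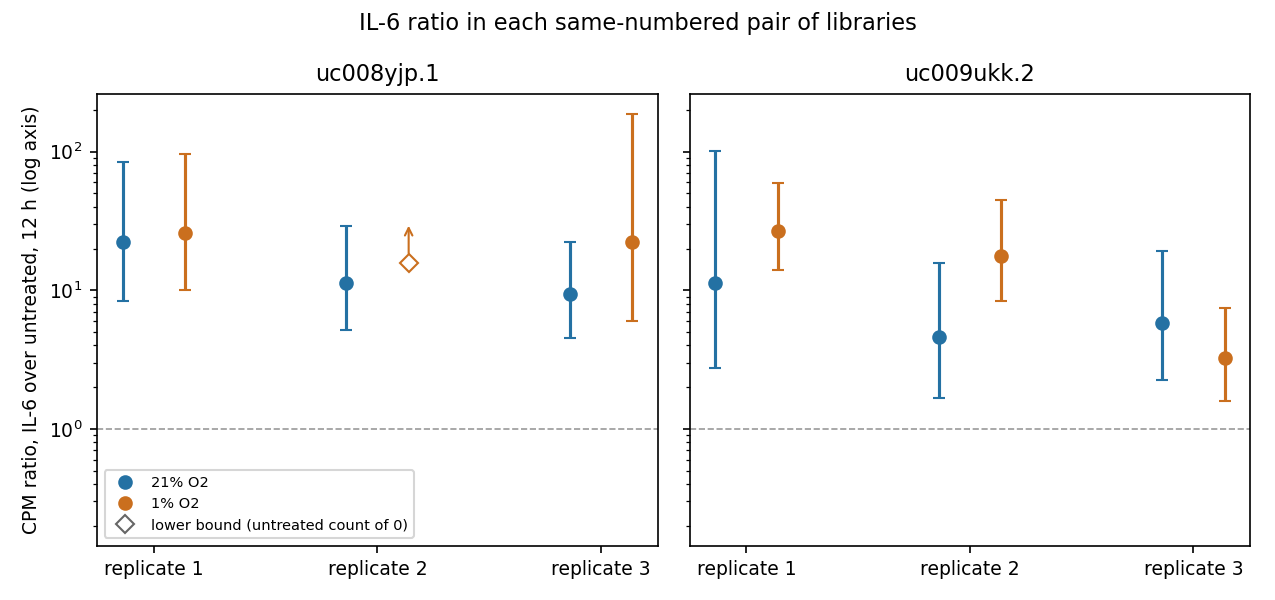
CPM ratio of IL-6 over untreated libraries at 12 h, on a log axis, for each replicate number in normoxia (blue) and hypoxia (orange), with exact 95% counting intervals as bars. The open diamond is a lower bound of 15.7 for a pair whose untreated count was 0; uc009ukk.2 in replicate 3 is the pair in which the hypoxia ratio, 3.24, was below the normoxia ratio, 5.83.

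On the log2 scale, with a prior count of 2 that draws in the ratios of low counts, the IL-6 change of uc008yjp.1 was larger in hypoxia than in normoxia by 0.33, 1.78 and 1.04 in replicates 1, 2 and 3. For uc009ukk.2 the same differences were 1.87, 2.09 and -0.46. These differences match the 2 oxygen levels by replicate number only, and are not differences within pairs. The mean change of uc009ukk.2 in hypoxia was 3.33 ± 1.55 (SD, n = 3), against 2.16 ± 0.47 in normoxia (SD, n = 3). For uc008yjp.1 it was 4.36 ± 0.49 in hypoxia and 3.31 ± 0.59 in normoxia (SD, n = 3 each). In hypoxia uc009ukk.2 had the largest change of the 13432 tested identifiers in replicate 1 and the second largest in replicate 2, but was number 447 in replicate 3. The identifier uc008yjp.1 was first or second in all 3 hypoxia replicates. The choice of both identifiers on these libraries favours large changes and high ranks in hypoxia.

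The 27 identifiers called for IL-6 in normoxia, which were chosen without the hypoxia libraries, give a reference for the replicates. Their median log2 change in hypoxia was 2.42 in replicate 1, 2.14 in replicate 2 and 1.94 in replicate 3. Beside these, uc009ukk.2 changed by 4.55, 3.85 and 1.59, above the median in replicates 1 and 2 and below it in replicate 3. The identifier uc008yjp.1, itself 1 of the 27, changed by 4.30, 4.88 and 3.90, above the median in each. Both identifiers were chosen on these hypoxia libraries, which favours values above the median, so the comparison is a description. Replicate 3 in hypoxia is the set that stood apart in the distances between libraries, and the part of that in the low value of uc009ukk.2 was not tested.

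In the fit over all libraries, the IL-6 log2 fold change was larger in hypoxia than in normoxia by 1.27 (SE 0.89) for uc008yjp.1 and by 1.26 (SE 0.86) for uc009ukk.2. No test is given, because the choice of the identifiers favours a large value in hypoxia. Over the 27 identifiers called in normoxia, 15 had a larger and 12 a smaller log2 fold change in hypoxia, with a median difference of 0.04. Over all 13432 tested identifiers the difference of uc008yjp.1 was number 154 from the highest and that of uc009ukk.2 number 157. The difference of uc008yjp.1 was 2.20 without untreated hypoxia 12 h replicate 1 and 0.58 without replicate 2 of that group, the library with a count of 0; its hypoxia change itself was 5.91 and 4.29. Without hypoxia replicate 3 in all 3 groups, the difference of uc008yjp.1 was 1.57 and its hypoxia change 5.26. For uc009ukk.2 the difference was 0.38 and the hypoxia change 3.004 without hypoxia IL-6 replicate 1, and they were 1.96 and 4.57 without hypoxia replicate 3. Untreated and IL-6 libraries in hypoxia also differed in depth, with 3587239 to 6377596 and 6764138 to 10241162 assigned counts, and the part of depth in these differences was not tested.

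Before IL-6 the 2 identifiers stood in opposite order between the oxygen levels. At 0 h, in libraries that took no part in the choice, uc008yjp.1 was lower in hypoxia by a log2 difference of -1.80 (SE 0.74) with an edgeR adjusted p of 0.203. The highest hypoxia library was at 0.434 CPM and the lowest normoxia library at 0.950 CPM, but the hypoxia library of replicate 3, with a count of 0, allows up to 1.14 CPM. The identifier uc009ukk.2 was higher in hypoxia by 1.66 (SE 0.79) with an edgeR adjusted p of 0.301. Its groups did not overlap in CPM, at 0.197 to 0.380 in normoxia and 0.723 to 1.14 in hypoxia. Before scaling for depth its counts were 1, 2 and 4 in normoxia and 7, 5 and 3 in hypoxia. The value of 1.14 CPM comes from the 3 counts of replicate 3, the library with the least depth. The share of all tested identifiers without such overlap was not counted. Of the tested identifiers, 4.95% were called in this comparison, and neither of the 2 was among them. Without hypoxia replicate 3 the differences were -1.56 for uc008yjp.1 and 1.52 for uc009ukk.2. With a replicate block and lane in the model, uc008yjp.1 was called, at -2.01 (edgeR adjusted p = 0.0387), and uc009ukk.2 was not (edgeR adjusted p = 0.168). Of the 13432 tested identifiers, that model called 2452, against 665 in the fit as reported. The model with block and lane pairs replicate numbers across oxygen levels, although the deviations of same-numbered libraries correlated there as low as -0.03. With the block alone neither was called (edgeR adjusted p = 0.0571 and 0.299). Within lane 3, with 1 hypoxia and 2 normoxia libraries, the log2 differences were -1.31 for uc008yjp.1 and 1.38 for uc009ukk.2.

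At 12 h the same order was seen without IL-6, in libraries that took part in the choice and are described only. The log2 difference of hypoxia minus normoxia was -0.81 (SE 0.78) for uc008yjp.1 and 1.86 (SE 0.67) for uc009ukk.2. With IL-6 it was 0.46 (SE 0.43) for uc008yjp.1 and 3.12 (SE 0.48) for uc009ukk.2. For uc008yjp.1 the ranges of the 2 oxygen levels overlapped both without and with IL-6. For uc009ukk.2 they overlapped in neither state, and hypoxia was the higher in both. The share of all tested identifiers without such overlap was not counted. Without hypoxia replicate 3 the untreated differences were -1.00045 (SE 0.95) and 1.59 (SE 0.58), and those with IL-6 were 0.57 (SE 0.45) and 3.55 (SE 0.36).

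**Figure D4:**
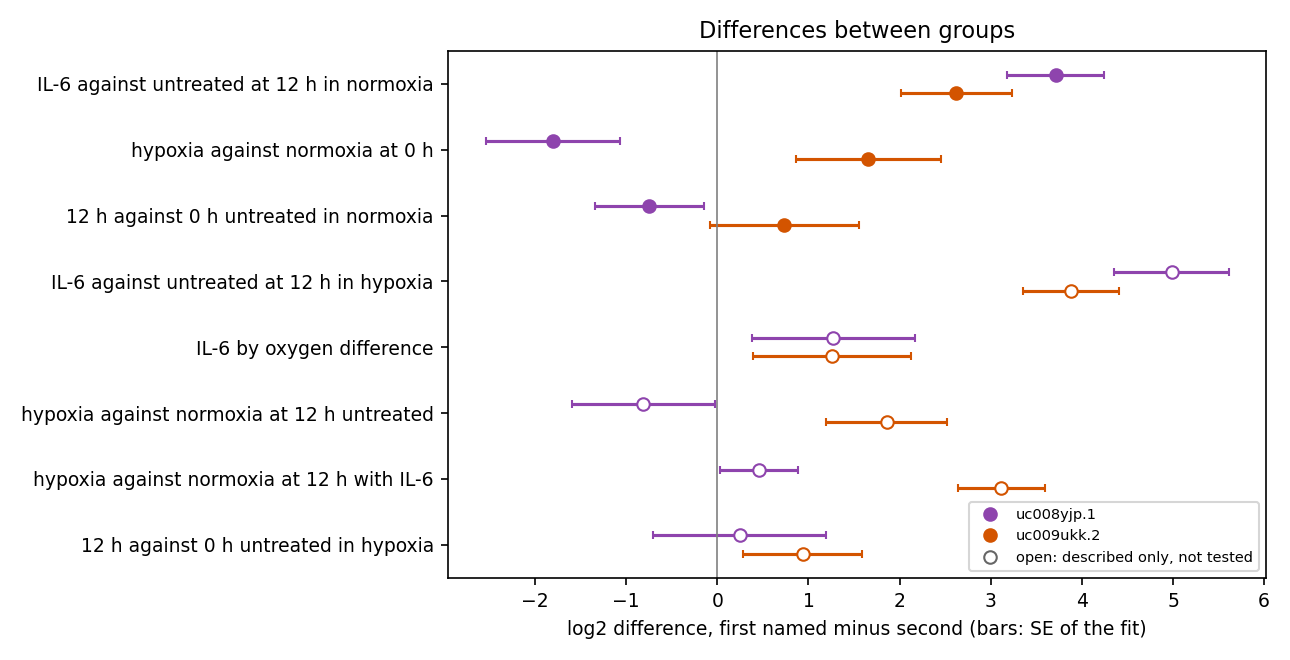
Log2 difference between groups for uc008yjp.1 (purple) and uc009ukk.2 (orange), first named group minus second, with bars of 1 SE from the fit over 18 libraries. Filled points were tested and open points are described only; the 2 identifiers lie on the same side of 0 for IL-6 and on opposite sides for hypoxia at 0 h and at 12 h untreated.

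Without IL-6, neither identifier passed the test for the step from 0 h to 12 h in normoxia. The log2 difference of 12 h minus 0 h was -0.75 (SE 0.60) for uc008yjp.1 and 0.74 (SE 0.81) for uc009ukk.2, both at an edgeR adjusted p of 1.00. In this comparison 0.00744% of the tested identifiers were called. Within lane 7 the differences were -0.14 for uc008yjp.1 and 0.28 for uc009ukk.2, and within lane 3, with 1 library at 12 h and 2 at 0 h, they were -0.73 and 0.78. In hypoxia, described only because the 12 h libraries entered the choice, they were 0.25 (SE 0.95) and 0.94 (SE 0.66). Without hypoxia replicate 3 they were -0.18 (SE 1.14) and 0.79 (SE 0.60). For uc008yjp.1 both hypoxia values were smaller in size than their SE, so neither gives a direction.

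Sequencing lane could be held fixed for most of the IL-6 comparisons. Both libraries of a pair were in the same lane in all 3 hypoxia pairs and in replicates 1 and 3 in normoxia, while normoxia replicate 2 was in lane 3 untreated and in lane 6 with IL-6. The log2 IL-6 change within lane 2 was 3.97 for uc008yjp.1 and 2.68 for uc009ukk.2. Within lane 7 it was 2.86 and 2.05. Both within-lane values were above 0 for both identifiers, and they lie on either side of the change in replicate 2 for uc008yjp.1, 3.10, and above it for uc009ukk.2, 1.76.

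Likeness of pattern was measured as the root mean square difference in log2 CPM over the 18 libraries, after each identifier was centred on its own mean. For uc008yjp.1, whose own spread on this measure was 1.92, the 3 closest of 13431 other identifiers lay at 0.75 to 0.78, against a median of 1.97. These 3, which have no gene names here, had IL-6 log2 fold changes of 2.60 to 3.28 in normoxia and of 3.13 to 3.33 in hypoxia, which the choice by likeness over these libraries favours. Their log2 differences between hypoxia and normoxia at 0 h were -1.36, -1.05 and -0.29, below 0 as for uc008yjp.1. The 0 h libraries also entered the likeness, which favours the same sign, and none of these identifiers was called there (edgeR adjusted p from 0.0885 to 0.805).

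For uc009ukk.2, with a spread of 1.80, the 3 closest lay at 0.84 to 0.93, against a median of 1.85. Their IL-6 log2 fold changes were 2.13 to 2.58 in normoxia and 1.98 to 3.64 in hypoxia, again values that the choice favours. At 0 h, in libraries that also entered the likeness, they differed between hypoxia and normoxia by 0.01, 1.17 and 2.42 (edgeR adjusted p = 0.993, 0.138 and 0.0150). The 2 chosen identifiers lay 1.43 apart, which made uc009ukk.2 number 55 in likeness to uc008yjp.1, and uc008yjp.1 number 111 in likeness to uc009ukk.2. All of these identifiers were measured in the same libraries, so the distances are a description.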

How the data were processed

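Total RNA of 18 libraries was depleted of ribosomal RNA and sequenced, per the labels' protocols. Reads were aligned to mm10 with TopHat2 and counted with HTSeq, and DESeq2 was used by the authors for testing, per the submitters' processing notes, with no version, annotation or strand setting stated there. The deposited values are raw counts per UCSC identifier, with no normalization by the authors. The 5 HTSeq summary rows were left out of totals and tests; ambiguous reads averaged 46.5% and reads outside features 17.9% of uniquely aligned reads.

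Identifiers were filtered with filterByExpr by group (13432 kept, holding 99.5% to 99.7% of each library's counts), scaled by TMM and tested by edgeR 4.0.16 (R 4.3.3) with a robust quasi-likelihood F-test over all 18 libraries, 1 coefficient per group. P-values were Benjamini-Hochberg adjusted over all 13432. SE is the absolute log2 fold change over the square root of F. DESeq2 1.42.0 was an alternative. Counting intervals are exact conditional binomial intervals at 95%; they and the floor of 3 counts cover counting error only. The procedure was tested on simulated data.

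The 2 identifiers, the comparisons and the lists were chosen with earlier results of these data known. Only 2 identifiers are printed, since none has a gene name here, and the gene and marker lists written down at the outset could not be applied. Same-numbered libraries deviated together, with correlations of 0.50 to 0.69 for IL-6 and 0.47 to 0.66 for time in normoxia and 0.35 to 0.63 for IL-6 in hypoxia, across identifiers, which are not independent replicates, so the numbers pair these libraries; between oxygen levels at 0 h the lowest was -0.03, and the numbers were not taken as pairs. No pair of libraries agreed within sampling noise (chi-square per degree of freedom 5.54 to 169 over all 153 pairs).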

Additional observations from a re-analysis of the deposited data

How the results depend on the processing

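Over 10 log2 values of the 2 identifiers, 136 alternative values were computed and 0 changed sign; the 12 h against 0 h value of uc008yjp.1 in hypoxia, not among the 10, turned from 0.25 to -0.18 without hypoxia replicate 3. The normoxia IL-6 call of uc008yjp.1 was made in all 16 of its alternatives. That of uc009ukk.2 was not made in the fit as reported. It was made with no filter on low counts (log2 fold change 2.58), DESeq2 (2.66) and a replicate block within oxygen (2.60). The replicate block across oxygen conditions (2.61) and the fit without hypoxia replicate 3 (2.61) made it too. In an alternative chosen after seeing the data, it was made in the replicate block with 1 replicate number left out (2.34 to 2.84). With libraries left out and no block, the log2 fold change was 2.45 to 2.75, and the call was made in 1 of 7 such fits. At 0 h, uc008yjp.1 was called with the replicate block and lane (-2.01); with the replicate block alone it was not (-1.88, edgeR adjusted p = 0.0571). The cause of these changes was not tested. With libraries left out, the hypoxia IL-6 change of uc008yjp.1 ran from 4.29 to 5.91 and that of uc009ukk.2 from 3.004 to 4.57; the differences between oxygen levels ran from 0.58 to 2.20 and from 0.38 to 1.96.

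The number of identifiers called for IL-6 in normoxia, 27, was 55 with no filter, 73 with DESeq2, 16 with only the compared groups, 398 under the replicate block within oxygen, 99 under the block across oxygen conditions, and 8 to 38 with libraries left out. In the block with replicate 1, 2 or 3 left out of every group it was 162, 257 and 367. For hypoxia at 0 h, 665 became 313 with only the compared groups, 1473 with the replicate block, 2452 with the block and lane, and 344 to 954 with libraries left out; the higher and lower calls, 286 and 379, were 398 and 359 with no filter. For 12 h against 0 h in normoxia, 1 became 2 with DESeq2, 0 with only the compared groups (108 were at an unadjusted p under 0.05 in the fit as reported), 19 with the replicate block within oxygen, and 0 to 1 with libraries left out. Depth limits the untreated values most, at 0 to 11 counts per library for either identifier.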
